A study of Homo sapiens with 4 samples.

Results

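miR-423 and miR-3184 are 2 microRNA genes that lie on opposite strands of the same stretch of human chromosome 17. Their mature products, hsa-miR-423-5p, hsa-miR-423-3p, hsa-miR-3184-5p and hsa-miR-3184-3p (hsa- marks human), were taken by name from a deposited table of 2039 miRNAs, and all 4 were found. The table holds small RNA sequencing counts of HFE-145, a line of immortalised epithelial cells from human stomach. The cells overexpressed YAP5SA, a mutant of the Hippo pathway effector YAP that escapes inhibition by the LATS kinases, or carried the vector, with 2 samples of each. Per the labels each condition was run in duplicate, with nothing on whether cultures were separate. The p-values therefore reflect spread between these 4 libraries alone, and it may be technical. They name no clone, promoter or time of expression, and YAP itself was not analysed here.

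A miRNA gene is transcribed into an RNA that folds back into a hairpin. Drosha and Dicer cut out a short duplex with 1 strand from each arm, and usually one of these strands is retained by Argonaute and the other is lost. The seed, bases 2 to 8 of the retained strand, does most of the pairing with target mRNAs. A hairpin gene read from the opposite strand can also fold into a hairpin, which is how miR-3184 is annotated against miR-423. miR-423-5p and miR-423-3p are found in many human tissues and in blood, and miR-423-5p is a common reference in miRNA PCR.

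In GRCh38, MIR423 runs from 30117079 to 30117172 on the plus strand of chromosome 17, and MIR3184 from 30117086 to 30117160 on the minus strand, by RefSeq. GENCODE 29 places both within intron 1 of the principal transcript of NSRP1, a nuclear speckle splicing regulator, between 30116864 and 30118079. The start of the MIR423 hairpin is 298 bases downstream of the start of that transcript. Exons of 3 other NSRP1 transcripts overlap the hairpin, to an extent that was not measured. It is thus intronic for the principal transcript but not wholly so for those. An antisense gene, AC104984.2, also spans the site on the minus strand, with 0 transcripts that have an exon over the hairpin. AC104984.5, also on the minus strand, runs from 30117079 to 30117172, as the MIR423 hairpin does. It has 1 transcript with an exon there. The hairpins are printed here 5′ to 3′ from RefSeq (GRCh38.p14), each on its own strand, with the mature arms in capitals, to show which entries face each other.
MIR423: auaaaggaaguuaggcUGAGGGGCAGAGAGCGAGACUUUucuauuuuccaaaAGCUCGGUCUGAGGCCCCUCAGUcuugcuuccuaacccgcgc
MIR3184: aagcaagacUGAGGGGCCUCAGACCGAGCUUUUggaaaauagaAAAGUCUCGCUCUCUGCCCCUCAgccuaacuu

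The 4 mature sequences are shown next, 5′ to 3′, with the seed in capitals. All 4 matched RefSeq letter for letter.
hsa-miR-423-5p: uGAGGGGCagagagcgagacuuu
hsa-miR-423-3p: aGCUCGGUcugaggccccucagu
hsa-miR-3184-5p: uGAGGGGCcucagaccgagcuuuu
hsa-miR-3184-3p: aAAGUCUCgcucucugccccuca

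Each arm of one hairpin faces the other arm type of its opposite gene. miR-3184-3p is the reverse complement of miR-423-5p over all 23 bases, and both cover 30117095 to 30117117. miR-3184-5p, from 30117128 to 30117151, is the reverse complement of 21 bases of miR-423-3p, which runs from 30117131 to 30117153. The names cross in a second way. miR-423-5p and miR-3184-5p come from opposite strands and different arms of the stem, yet their first 8 bases are identical (UGAGGGGC), so they share the seed GAGGGGC. These 8 bases are the reverse complement of GCCCCUCA, which starts at base 14 of miR-423-3p. Of the next 15 positions 5 are identical, compared without gaps, for 13 of 23 in all. Among the 2039 table entries the seed GAGGGGC occurs in these 2 miRNAs and no other, and the seeds of miR-423-3p (GCUCGGU) and miR-3184-3p (AAGUCUC) each occur once. All 4 are rich in G and C, at 56.5% for miR-423-5p and for miR-3184-3p, 58.3% for miR-3184-5p and 65.2% for miR-423-3p.

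Total counts over all miRNAs were 136903 and 191954 in YAP5SA replicates 1 and 2, and 217235 and 195283 in vector replicates 1 and 2. The epithelial markers chosen to check the cell line (the miR-200 family, miR-203a and miR-205-5p) summed to 12076 and 15114 CPM (counts scaled to a common library size) in the YAP5SA libraries and 29164 and 25668 CPM in the vector libraries. All 7 were detected, and 4 of the 6 tested (miR-141-3p, miR-200b-3p, miR-429 and miR-203a) were called lower by edgeR, against 3.49% of all 602 miRNAs tested. Muscle, neural, endothelial and mesenchymal lists each summed to 26.4 to 250 CPM in any library. The 7 blood markers, of which miR-486-5p was the most counted, summed to 1721 and 1413 CPM in YAP5SA and 2446 and 2537 CPM in vector. No marker on any of these lists was at 0 in all libraries. The part of cell identity in the values below was not tested.

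miR-423 was counted mostly as its 3p arm in both conditions. hsa-miR-423-3p had 732 and 1152 raw counts in YAP5SA replicates 1 and 2, and 1074 and 1242 in vector replicates 1 and 2. hsa-miR-423-5p had 116 and 102 raw counts in the YAP5SA libraries, and 145 and 158 in the vector libraries. The 3p arm thus exceeded the 5p arm 6.31-fold and 11.3-fold in the YAP5SA libraries, and 7.41-fold and 7.86-fold in the vector libraries.

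The 5p arm took 13.7% of miR-423 counts in YAP5SA replicate 1 (exact binomial 95% interval 11.4 to 16.2) and 8.13% in YAP5SA replicate 2 (6.68 to 9.79). It took 11.9% in vector replicate 1 (10.1 to 13.8) and 11.3% in vector replicate 2 (9.68 to 13.1). The YAP5SA libraries lay on either side of the vector libraries, and their intervals did not overlap each other. These intervals cover counting error only and take each read as independent, so they may be too narrow. The log2 ratio of 5p to 3p averaged -3.08 ± 0.59 in YAP5SA and -2.93 ± 0.06 in vector (SD, n = 2 each). The difference of -0.15 was smaller than the spread between the YAP5SA libraries (two-sided exact permutation test, p = 1.0; 0.333 is the smallest p that 2 samples against 2 allow). Without YAP5SA replicate 2 the difference was 0.27, so its direction rested on that library.

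The opposite-strand entries showed the mirror image of this balance. hsa-miR-3184-5p, which faces the abundant miR-423-3p, had 766 and 1259 raw counts in the YAP5SA libraries, and 1020 and 1223 in the vector libraries. hsa-miR-3184-3p, which faces miR-423-5p, had 116 and 116 raw counts in YAP5SA, and 184 and 147 in vector. For miR-3184 the 5p arm was therefore the major one in each library. Its 3p arm took 13.2% (10.99 to 15.6) and 8.44% (7.02 to 10.03) of miR-3184 counts in YAP5SA replicates 1 and 2, and 15.3% (13.3 to 17.4) and 10.7% (9.14 to 12.5) in vector replicates 1 and 2. The log2 ratio of 3p to 5p averaged -3.08 ± 0.51 in YAP5SA and -2.76 ± 0.41 in vector (SD, n = 2 each), a difference of -0.32 (two-sided exact permutation test, p = 0.667). In both genes the lowest minor-arm share was that of YAP5SA replicate 2. Without that library the miR-3184 difference was 0.040.

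**Figure D1:**
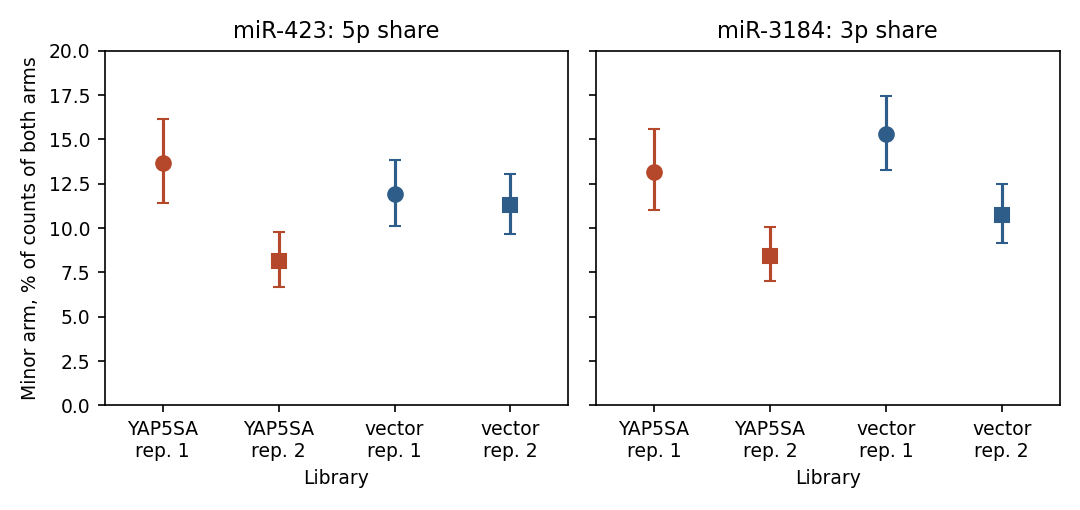
Share of the minor arm in each library, in percent of the raw counts of both arms, for miR-423 (5p) and miR-3184 (3p); points are single libraries and bars are exact binomial 95% intervals. YAP5SA replicate 2 is lowest in both panels, at 8.13% and 8.44%.

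Facing entries had nearly equal counts. In YAP5SA replicate 1, miR-423-5p and miR-3184-3p both had 116 counts. The ratio of miR-3184-3p to miR-423-5p was 1.0 and 1.14 in YAP5SA replicates 1 and 2, and 1.27 and 0.93 in vector replicates 1 and 2. The ratio of miR-3184-5p to miR-423-3p was 1.05 and 1.09 in the YAP5SA libraries, and 0.95 and 0.98 in the vector libraries. Neither member of a pair was the higher one throughout.

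Of the counts shared out between miR-423-3p and miR-3184-5p, miR-423-3p held 48.9% (exact binomial 95% interval 46.3 to 51.4) and 47.8% (45.8 to 49.8) in the YAP5SA libraries, and 51.3% (49.1 to 53.5) and 50.4% (48.4 to 52.4) in the vector libraries. miR-423-5p held 50.0% (43.4 to 56.6) and 46.8% (40.02 to 53.6) of its pair in YAP5SA, and 44.1% (38.6 to 49.6) and 51.8% (46.04 to 57.5) in vector. An even split lay inside 6 of these 8 intervals. The exceptions were miR-423-3p in YAP5SA replicate 2 and miR-423-5p in vector replicate 1. The table does not say which strand a read came from, and how the counting used strand was not given in the sources used here. Whether the same reads stand in both entries cannot be told from the table.

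Near-equal counts were not a general property of opposite-strand entries in this table. RefSeq places 48 pairs of table entries on opposite strands with an overlap of at least 16 bases. In 7 pairs both entries averaged at least 20 counts, a limit set after the values were seen. Of the 5 other pairs, 2 stayed within 1.5-fold in every library, as the miR-423 and miR-3184 pairs did: miR-103a-3p with miR-103b, and miR-203a with miR-203b-5p. The remaining 3 stood far apart. miR-24-3p exceeded miR-3074-5p by up to 23.7-fold, miR-371a-3p exceeded miR-371b-5p by up to 8.77-fold, and miR-371b-3p exceeded miR-371a-5p by up to 3.76-fold. The miR-371a and miR-371b pairs come from the same place on chromosome 19, so they are not separate cases. The same holds for both miR-423 and miR-3184 pairs. The miR-24-3p pair lies on chromosome 9. An entry named for another miR-24 gene, miR-24-2-5p, had 22 and 26 counts in YAP5SA and 39 and 34 in vector. Whether reads from that gene raise the miR-24-3p count was not tested. The number of bases that only one entry covers was 3 for each of the 3 unequal pairs. Among the near-equal pairs it was 0 for miR-423-5p with miR-3184-3p, 0 for miR-103a-3p with miR-103b, 2 for miR-203a with miR-203b-5p and 5 for miR-423-3p with miR-3184-5p.

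**Figure D2:**
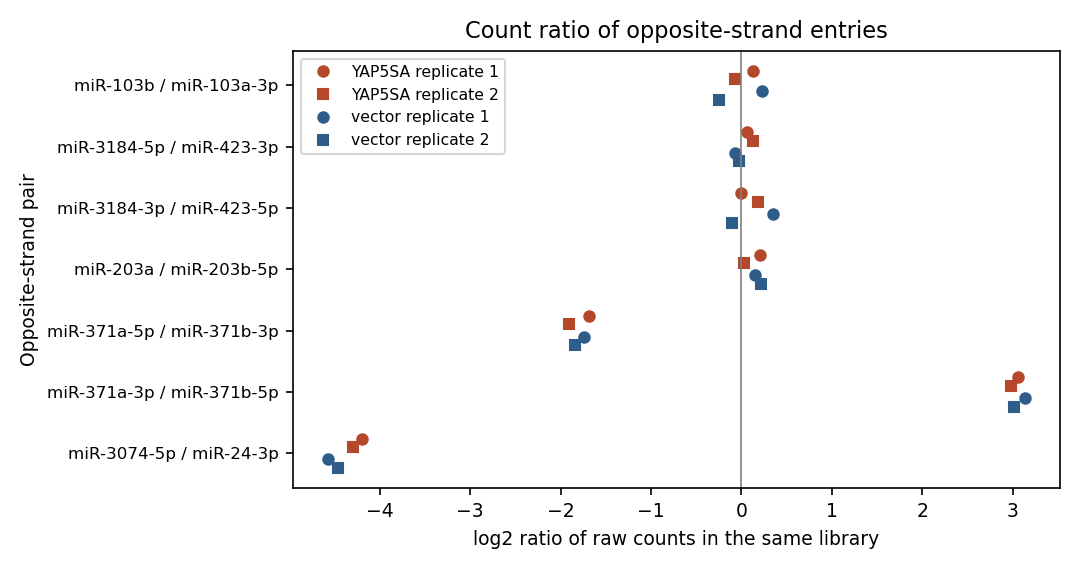
Log2 ratio of raw counts of opposite-strand entries in the same library, for the 7 pairs with a mean of at least 20 counts in both entries; each point is 1 library. Both miR-3184 and miR-423 pairs lie around 0, while 3 other pairs lie far from it.

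The comparison of YAP5SA with vector asked whether these miRNAs differ in level when YAP5SA is overexpressed. edgeR's quasi-likelihood test called 0 of the 4 entries, against 15.3% of the 602 miRNAs tested (11.8% higher and 3.49% lower in YAP5SA). At an unadjusted p under 0.05 the count was also 0 of 4, against 33.2% of those tested, and DESeq2 and limma-voom also called 0 of the 4. In simulated data the edgeR fit recovered 21.3% of planted 2-fold changes, so 0 calls do not show that such changes are absent. That share is an average over the 602 miRNAs, most with fewer counts than these 4, at a common dispersion of 0.106. The share at counts like those of the 4 entries was not estimated. All 4 had a log2 fold change under 0, as did 45.3% of tested miRNAs. Whether facing entries are separate measurements was not tested. In bulk RNA, fewer cells of a type and less RNA per cell cannot be told apart.

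miR-423-3p, the major arm, had 4158 and 6029 CPM in YAP5SA replicates 1 and 2, and 5674 and 8164 CPM in vector replicates 1 and 2, after scaling by the trimmed mean of M-values (TMM). YAP5SA replicate 2 lay between the vector libraries, so the groups overlapped. Its log2 fold change of -0.44 ± 0.31 (SE) had an adjusted p of 0.38 by edgeR. miR-3184-5p had 4351 and 6589 CPM in YAP5SA, and 5389 and 8039 CPM in vector. Its groups overlapped in the same way, and edgeR gave -0.30 ± 0.33 on the log2 scale (SE), with adjusted p = 0.59.

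The minor arm and its facing entry were the more separated pair. miR-423-5p had 659 and 534 CPM in YAP5SA, and 766 and 1039 CPM in vector. After TMM scaling both YAP5SA libraries lay below both vector libraries. edgeR put the log2 fold change at -0.60 ± 0.33 (SE), with adjusted p = 0.26. miR-3184-3p had 659 and 607 CPM in YAP5SA, and 972 and 966 CPM in vector. It too had no overlap between groups, and its value of -0.61 ± 0.30 on the log2 scale (SE) had adjusted p = 0.21 by edgeR. The separation depended on the normalization, since on the authors' normalized values the groups overlapped for both miRNAs. The TMM factors were 1.38 and 1.03 in YAP5SA replicates 1 and 2, and 0.89 and 0.79 in vector replicates 1 and 2. Of all tested miRNAs, 60.5% had no overlap between groups in one direction or the other, and 26.6% had both YAP5SA libraries below both vector libraries, as 2 of these 4 entries had.

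The order of libraries differed between the arms. For the major-arm pair the replicates of a group differed 1.44-fold to 1.51-fold, with replicate 2 the higher in each group. For miR-3184-3p they differed 1.09-fold in YAP5SA and 1.01-fold in vector. miR-423-5p differed 1.23-fold between YAP5SA replicates and 1.36-fold between vector replicates. By mean CPM, miR-3184-5p ranked 24, miR-423-3p 25, miR-3184-3p 72 and miR-423-5p 78 among the 602 tested.

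**Figure D3:**
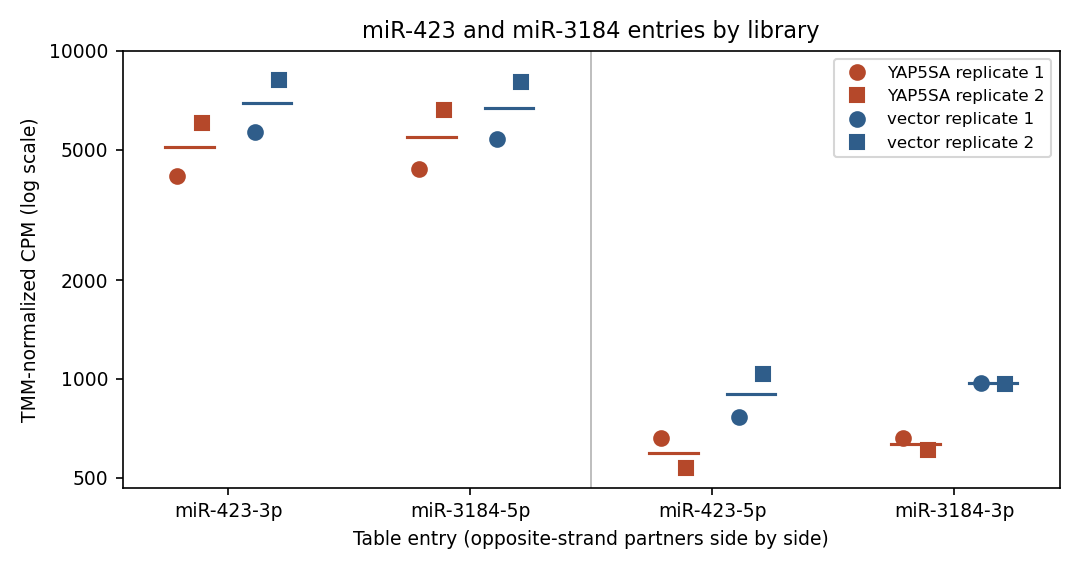
TMM-normalized CPM (log scale) of the 4 entries in each library, with facing entries side by side; points are single libraries and short lines are group means. The major-arm pair spans 4158 to 8164 CPM with overlapping groups, and the minor-arm pair spans 534 to 1039 CPM with YAP5SA below vector.

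The scaling and 1 library changed what the comparison gave. With library totals as the only scaling, the log2 fold change was -0.05 for miR-423-5p, 0.052 for miR-423-3p, 0.20 for miR-3184-5p and -0.09 for miR-3184-3p. The median of all tested miRNAs was 0.61 there, in place of 0.11. With scaling from abundant miRNAs (a mean of at least 1000 CPM) all 4 were above 0, at 0.14 to 0.41, and the median of all was 0.83. Relative to the median of all miRNAs, miR-423-5p stood at -0.71 with TMM, -0.66 after scaling by totals and -0.67 after scaling by abundant miRNAs. In the same order miR-423-3p stood at -0.56, -0.55 and -0.56. A change of scaling moves each miRNA and the median by nearly the same amount. The closeness of these positions across scalings was therefore set in advance and is no sign of stability. With no filter on low counts these positions were -1.32 for miR-423-5p and -1.10 for miR-423-3p, and with a filter at a mean of 100 CPM they were -0.33 and -0.20. On the authors' normalized values they were -0.0089 and 0.067, so the position below the median depended on the processing. The filter on low counts also moved the size: for miR-423-5p the log2 fold change was -1.04 with no filter and -0.16 with a filter at a mean of 100 CPM. Leaving out YAP5SA replicate 2 put all 4 past the threshold on the lower side, at -1.01 to -1.29 on the log2 scale (adjusted p = 0.0012 to 0.032 by edgeR). Calls were more frequent over the whole table in that fit, at 29.8% of 949 miRNAs, with 16.8% called lower. The spread was then taken from the vector libraries alone, with the lone YAP5SA library assumed to vary like them. That library, YAP5SA replicate 1, had the lowest total count and the highest TMM factor (1.38). It also had the most miRNAs with a count, 1988 against 1891, 1802 and 1761 in the other libraries. Leaving out any of the other 3 libraries gave 0 calls among the 4 entries.

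**Figure D4:**
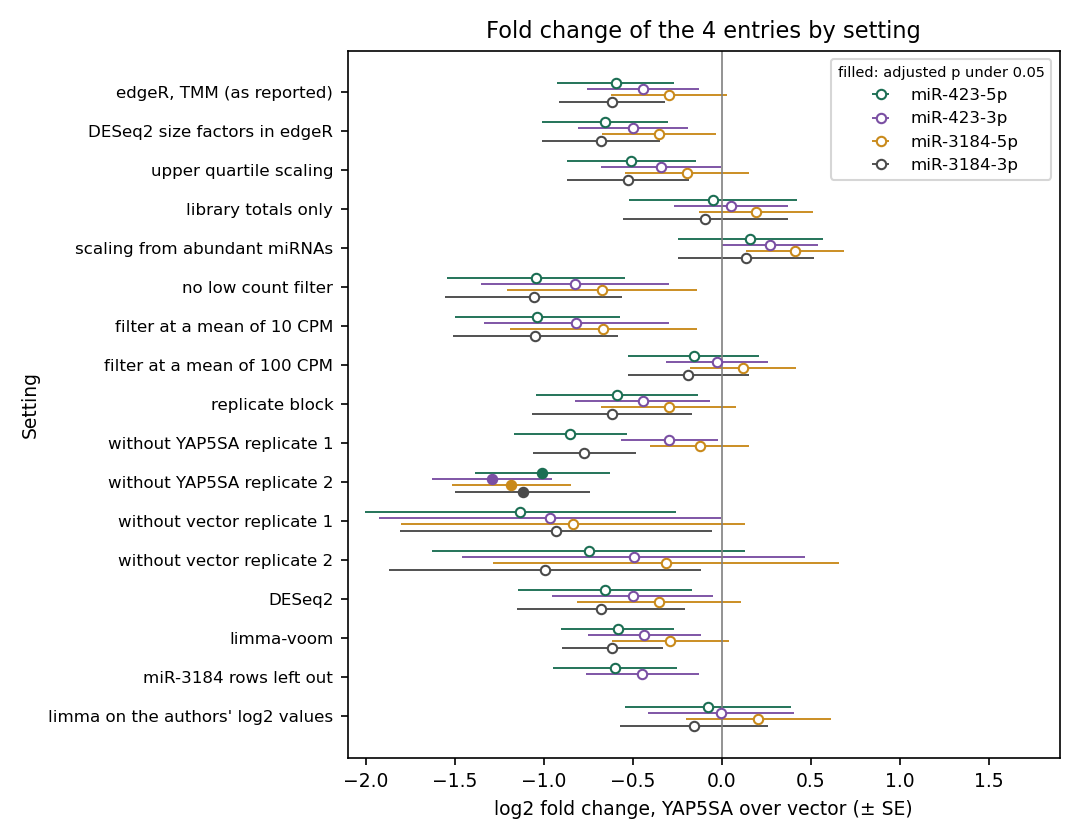
Log2 fold change of YAP5SA over vector with its SE for the 4 entries under each setting; filled points have an adjusted p under 0.05. The 4 entries are below 0 as reported, are filled without YAP5SA replicate 2 alone, and lie above 0 with scaling from abundant miRNAs (0.14 to 0.41).

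In the authors' deposited table, miR-423-5p had a fold change of 0.96 (p = 0.045) and miR-3184-3p one of 0.91 (p = 0.018), YAP5SA over vector. The authors' deposited table gave miR-423-3p a fold change of 0.995 (p = 0.20) and miR-3184-5p one of 1.14 (p = 0.30). Of its 2039 miRNAs, 9.32% had p under 0.05, without adjustment (test not given in the sources used here). On the authors' normalized log2 scale, miR-423-5p was at 7.29 and 6.66 in YAP5SA and 6.83 and 7.27 in vector. miR-3184-3p was at 7.29 and 6.87 in YAP5SA and 7.27 and 7.19 in vector. On that scale the groups overlapped for both miRNAs. Exact values recur between libraries there: miR-423-5p in vector replicate 2 and miR-3184-3p in vector replicate 1 share the same 7.27. Their raw counts were 158 and 184. Whether the authors scaled each library by a single factor was not tested.

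Other miRNAs that are widely used as references in miRNA PCR were listed for comparison. All 10 were tested, and 0 were called higher and 0 lower, against 11.8% and 3.49% of all 602 tested. A log2 fold change under 0 was found for 8, against 45.3% of all tested. The median of the list was -0.46, against 0.11 for all tested miRNAs. let-7a-5p averaged 5859 ± 1803 CPM in YAP5SA and 7971 ± 369 CPM in vector (SD, n = 2 each), with a log2 fold change of -0.44. miR-221-3p had a log2 fold change of -0.47, miR-92a-3p, of the miR-17-92 cluster, one of -0.12, and miR-25-3p one of -0.70. These are the 4 most abundant of the list. The median, like the members' values, depends on the scaling.

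Of 18 other miRNAs of chromosome band 17q11.2, 5 had enough counts to test. In either direction 0 were called, against 15.3% of all 602 tested. Their median log2 fold change was -0.06, with a range of -0.27 to 3.14. The most abundant of the 5, miR-144-5p, an erythroid miRNA, had 34 and 14 counts in YAP5SA and 33 and 18 in vector. miR-4724-3p had 32 and 18 counts in YAP5SA and 0 and 5 in vector. Its log2 fold change was 3.14, with adjusted p = 0.062 by edgeR. miR-193a-3p had a log2 fold change of -0.06 and miR-365a-3p one of -0.27. The table has a separate entry, miR-365b-3p, with the same mature sequence as miR-365a-3p, and MIR365B is the gene of this band, so the split of reads between them is uncertain. miR-365b-3p had 11 and 10 counts in YAP5SA and 9 and 5 in vector, and a log2 fold change of 0.48. With this entry added to the list, a choice made after its values were seen, the median was 0.21.

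Abundant miRNAs like miR-423-5p were sought among 64 with a mean of at least 1000 CPM, the members left out. The measure was the distance between centred log2 CPM values over the 4 libraries. miR-423-5p itself averaged 749 CPM, and miRNAs below the limit were not searched. The nearest 5 were miR-744-5p (distance 0.32), miR-103a-3p (0.33), let-7e-5p (0.45), miR-486-5p (0.46) and let-7g-5p (0.48). On the same measure miR-3184-3p was 0.34 from miR-423-5p, miR-423-3p 0.61 and miR-3184-5p 0.70. Of the 64 candidates, 14 were nearer to miR-423-5p than miR-423-3p was, 22 nearer than miR-3184-5p and 2 nearer than miR-3184-3p. miR-744-5p had 2579 and 2088 CPM in YAP5SA, and 3196 and 3208 CPM in vector.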

How the data were processed

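The authors deposited a single table of mature miRNAs in 2 YAP5SA and 2 vector samples. Raw read counts stand in it as whole numbers, unnormalized per the file headers. The log2 values are read counts that the authors normalized (method not given in the sources used here). Within 1%, the deposited fold change equalled the ratio of group means of linear normalized values for all 2039 miRNAs. The p-value column was deposited with no test named. The submitters' processing notes name FastQC and hg19; for aligner, counter and strand, nothing was given in the sources used here. Start and end positions were used for 1 observation. Groups came from sample titles, and 3 lines with no values were left out.

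edgeR 4.0.16 (R 4.3.3; quasi-likelihood, TMM, default low-count filter, group as the term) tested 602 miRNAs, which held 96.9% of counts, with Benjamini-Hochberg adjustment and a threshold of 0.05. Each SE is the size of the log2 fold change over the square root of F. The fit was tested on simulated data. Alternatives used limma 3.58.1, DESeq2 1.42.0, other scalings and filters, and left-out libraries. Arm shares, permutation tests and figures used Python 3.11.15, NumPy 2.4.6, SciPy 1.17.1 and matplotlib 3.10.9. Sequences and GRCh38 positions came from RefSeq, matched by mature sequence for 1803 of 2039 entries, and gene models from GENCODE 29. The 4 entries were named. From the reference and 17q11.2 lists, those past the threshold or among the 4 most abundant of their list were named. So were the 5 nearest to miR-423-5p among abundant miRNAs (a mean of at least 1000 CPM). The opposite-strand pairs and the cell markers were named beside these. The members and lists were chosen with earlier results of these data known.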

Additional observations from a re-analysis of the deposited data

How the results depend on the processing

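Over all miRNAs, edgeR called 92 of 602, 71 higher and 21 lower. The count was 159 with library totals (147 higher, 12 lower), 167 with scaling from abundant miRNAs (163 and 4), 48 with no filter, 20 and 26 with filters at a mean of 10 and 100 CPM, 51 with DESeq2, 31 with limma-voom and 0 with limma on the authors' log2 values. With 1 library left out it was 1 to 283, the 283 (124 higher, 159 lower, of 949 tested) coming without YAP5SA replicate 2, and 114 with the miR-3184 entries left out. Of the 4 entries 0 were called in every setting but one: with 1 library left out the count was 0 to 4, the 4 coming in that same fit, where 29.8% of all miRNAs were called. Signs turned to above 0 with library totals for miR-423-3p (0.052) and miR-3184-5p (0.20), with scaling from abundant miRNAs for miR-423-5p (0.16), miR-423-3p (0.27), miR-3184-5p (0.41) and miR-3184-3p (0.14), and for miR-3184-5p with the filter at 100 CPM (0.12) and on the authors' values (0.21). The cause was not tested. Over the alternatives, the adjusted p ranged over 0.032 to 0.98 for miR-423-5p, 0.0012 to 1.0 for miR-423-3p, 0.0032 to 0.95 for miR-3184-5p and 0.015 to 0.92 for miR-3184-3p. With 1 library left out, the arm difference was -0.57 to 0.27 for miR-423 and -0.68 to 0.040 for miR-3184. On the authors' values it was -0.08 and -0.36, and -0.24 for miR-423 with facing entries averaged. The mean log2 ratio of facing entries was 0.11 and 0.02 in counts, and 0.14 and 0.02 on the authors' values.

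The shared replicate numbers are not stated to pair samples, and same-numbered deviations had a correlation of 0.02. With the replicate block 136 miRNAs were called and 0 of the 4 entries, and the log2 fold change of miR-423-5p was -0.59. The arm differences stay at -0.15 and -0.32 with the block by arithmetic, so this is no check of them. Counts of 102 to 184 limit the precision of the minor arm.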

Other observations

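The position that the authors' deposited table gives for miR-3184-5p did not match its sequence. The table starts both miR-3184-5p and miR-423-5p at 28444114, with no chromosome named, and the submitters' processing notes name hg19. In the same table miR-423-3p starts 36 bases after miR-423-5p, which is also the distance in RefSeq on GRCh38. RefSeq starts miR-3184-5p 33 bases after miR-423-5p, where it faces miR-423-3p. The mature sequence in the deposited table matches the reverse complement of miR-423-3p over 21 bases in a row and that of miR-423-5p over at most 5. The table gives no position for miR-3184-3p, nor for 152 miRNAs in all. Its counts for miR-3184-5p were close to those of miR-423-3p (766 and 732 in YAP5SA replicate 1) and far from those of miR-423-5p (116 in the same library).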
